A study of Mus musculus with 12 samples.

Results

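The genes described here are 34 markers of thymic mimetic epithelial cells, followed in whole mouse thymus from early growth to young adult age. They were chosen by name, by the cell type each marks, out of 22843 gene symbols in the mRNA table: 7 tuft genes, 2 microfold genes, 2 ciliated cell genes, 5 muscle genes, 6 keratinocyte genes and 12 exocrine, gut and secretory genes. The thymuses came from wild type male C57BL/6 mice of 2 weeks (2W), 6 weeks (6W) and 3 months (3M), with 2 libraries at each age and no treatment. Long RNA depleted of ribosomal RNA, with the strand marked, gave the mRNA and circRNA tables, and a separate small RNA library gave the miRNA table. The whole organ was sequenced, so that fewer cells of a type and less RNA per cell cannot be told apart.

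Medullary thymic epithelial cells show developing T cells the body's own proteins, and cells that react too strongly are removed or become regulatory cells. Besides the release of tissue genes by Aire, some medullary cells take on the programme of a cell type from elsewhere in the body under that cell type's own transcription factor. These mimetic cells include tuft cells, microfold cells of the gut lining, ciliated airway cells, muscle cells, keratinocytes and secretory cells of gut and glands. They are few among the thymocytes that fill the organ, so that their transcripts are expected to be rare in RNA from the whole thymus.

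The mRNA table held 16519753 to 22553481 estimated counts per library. All values are normalised counts per 1000000 (CPM) unless another scale is named, and 3 counts, the limit used here for a gene without counts, were worth 0.132 to 0.190 CPM. The label of the tissue was borne out by its defining genes: the 6 thymocyte genes Cd3e, Cd4, Cd8a, Rag1, Ptcra and Lck together held 10789 to 15281 CPM, the 4 cortical epithelial genes Foxn1, Psmb11, Prss16 and Ly75 held 1012 to 1432 CPM, and the 8 medullary epithelial genes held 173 to 246 CPM at 2W, 356 to 385 CPM at 6W and 283 to 413 CPM at 3M. One pair of libraries stood apart in liver genes. Alb, Ttr and Apoa2 together held 137 to 199 CPM in 4 libraries but 2.47 CPM in 6W library 2 and 2.37 CPM in 3M library 2, and the results were also computed without that pair.

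All 34 markers had at least 1 count, but only 23 passed edgeR's filter on low counts and could be tested. From 2W to 6W, 2 of the 23 rose at a Benjamini-Hochberg adjusted p under 0.05 (edgeR quasi-likelihood F test, 14805 genes), the microfold factor Spib and the keratinocyte protease inhibitor Spink5, and none fell. Over all genes tested, 1.47% rose and 0.263% fell. From 6W to 3M, no marker passed with edgeR or limma, nor any of the 11 to which DESeq2 gave an adjusted p, and 5 were lower and none higher at an unadjusted p under 0.05 (Spib, Saa1, Muc13, Csn2 and Ltf), against 0.00675% of all genes called and 6.46% lower at an unadjusted p under 0.05. From 2W to 3M, which the study did not compare, 4 markers rose (Avil, Dclk1, Gp2 and Spink5) and none fell, where 7.91% of all genes rose and 3.1% fell. Each pair of comparisons shares the libraries of 1 age, so they are not independent. The p-values measure the spread between separate mice, 2 at each age. Rose, fell, passed and called refer to edgeR unless another tool is named. With DESeq2, 7 markers rose and none fell from 2W to 6W (Spib, Spink5, Gp2, Trpm5, Avil, Dclk1 and Krt10), where 4.53% of all genes with an adjusted p rose and 1.84% fell, and from 2W to 3M 5 rose and 1 fell (Csn2), where 9.52% and 5.34% of all genes did. Without the pair of libraries low in liver genes, 8 rose and none fell from 2W to 6W (Trpm5, Avil, Dclk1, Gp2, Krt10, Spink5, Muc13 and Ltf), where 4.27% of all genes rose, 1 fell from 6W to 3M (Ltf), where 1.08% of all genes fell, and 5 rose and 1 fell (Ltf) from 2W to 3M, where 9.3% and 3.78% of all genes did. A fit with 1 library of a compared age left out takes the spread at that age from the other ages.

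At the study threshold, which asks for a difference of more than 1 on the log2 scale at an unadjusted p under 0.05, 7 markers were higher and 1 lower at 6W than at 2W, where 4.48% and 0.878% of all genes were. The 7 are Trpm5, Avil, Sh2d6, Gp2, Krt10, Spink5 and Muc13, and the lower one is Hnf4a. From 6W to 3M 2 were lower (Ltf and Saa1) and none higher, where 0.817% and 1.29% of all genes were, and from 2W to 3M 6 were higher and 1 lower, where 7.67% and 1.68% of all genes were. The median log2 fold change of the 23 tested markers was 0.64 from 2W to 6W, -0.40 from 6W to 3M and 0.30 from 2W to 3M, against medians of all genes of -0.01, 0.02 and -0.03. The sign was positive for 20 of the 23 from 2W to 6W and negative for 18 of the 23 from 6W to 3M. Both 6W libraries were above both 2W libraries for 14 markers and below them for 2, which 28% and 29.8% of all genes did. Both 3M libraries were above both 6W libraries for 3 markers and below them for 11, which 25.9% and 23.3% of all genes did, and above both 2W libraries for 9 and below them for 3, which 27.7% and 24% of all genes did. The filter keeps a gene that is counted at 1 age only, so these numbers describe the tested markers and not all 34.

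**Figure D1:**
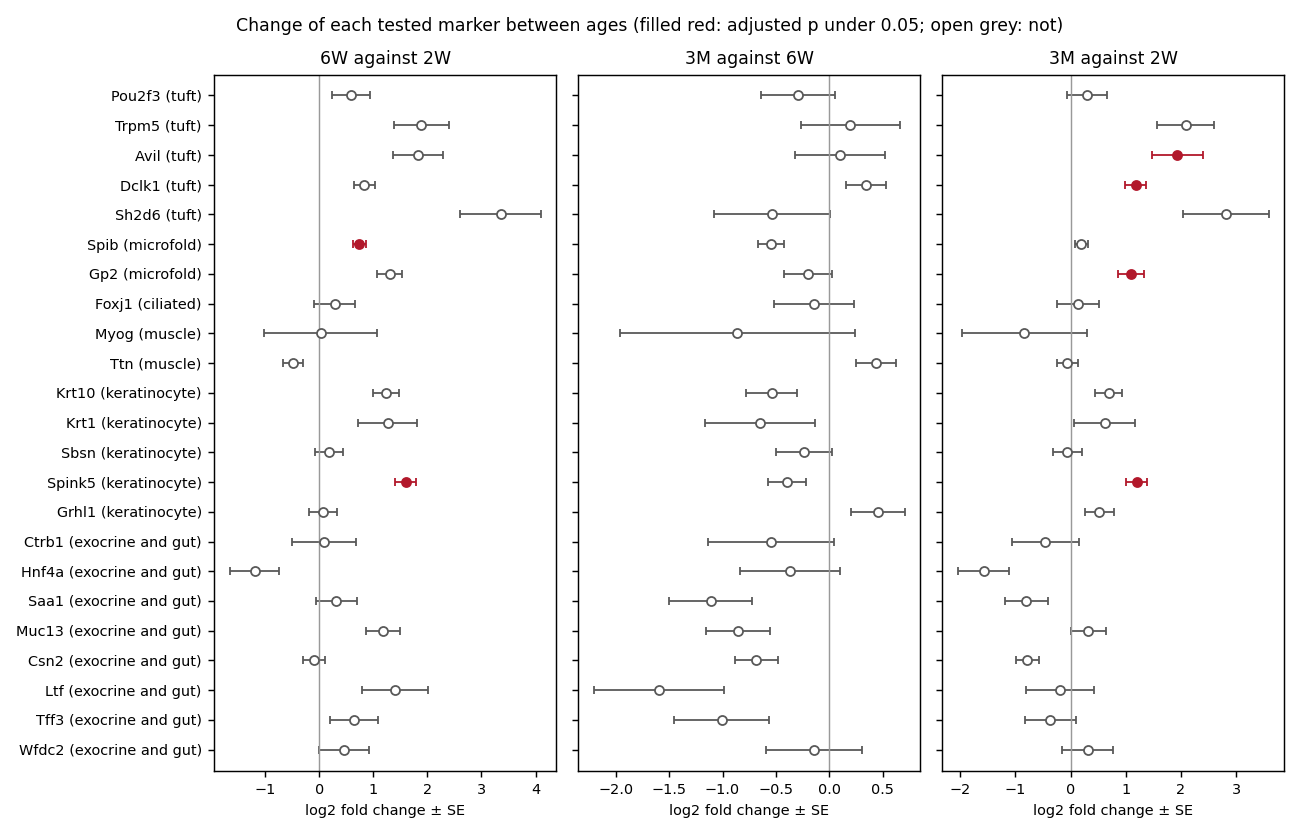
The log2 fold change of each of the 23 tested markers, with its standard error, for 6W against 2W (left), 3M against 6W (middle) and 3M against 2W (right). Filled red points have an adjusted p under 0.05 (2, 0 and 4 markers), and most open points lie above 0 on the left and below 0 in the middle.

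Levels between genes can be compared only per length, as deposited fragments per kilobase and 1000000 fragments (FPKM). On that scale the milk protein gene Csn2 was the highest marker with a median of 9.10 FPKM over the 6 libraries, ahead of Gp2 (6.67 FPKM), Spib (6.15 FPKM), Sbsn (5.06 FPKM), Krt10 (4.35 FPKM) and Saa1 (4.19 FPKM). Csn2 spanned 5.78 to 11.6 FPKM over the libraries, above every library of Sbsn (3.74 to 5.70 FPKM) and Krt10 (2.82 to 5.55 FPKM), while its range overlapped with those of Gp2, Spib and Saa1. Most tuft genes lay lower, with medians of 1.97 FPKM for Dclk1, 1.26 FPKM for Avil and 0.63 FPKM for both Trpm5 and Pou2f3. The median of Ttn was 0.78 FPKM although it had the most counts, because its transcript is very long. The last 7 markers, Chat, Chrna1, Ivl, Snap25, Trp73, Cpa1 and Ptf1a, had medians of 0 to 0.05 FPKM.

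Tuft cells are chemosensory epithelial cells built under the factor Pou2f3. Of the 7 tuft markers 5 were tested, and all 5 were higher in both 6W libraries than in both 2W libraries, as were 28% of all genes, and none passed edgeR's adjusted test from 2W to 6W. With DESeq2 Avil (adjusted p = 0.0156), Dclk1 (0.0288) and Trpm5 (0.0361) passed from 2W to 6W, and with limma on FPKM Sh2d6 did (0.0337), also from 2W to 3M (0.0249). Avil, which codes for the actin-binding advillin of the tuft cell's brush, had 1.90 and 0.981 CPM at 2W, 6.59 and 3.66 CPM at 6W and 4.27 and 6.67 CPM at 3M. Both later ages lay above 2W and overlapped with each other. Avil rose from 2W to 3M by a log2 fold change of 1.93 (with SE, the standard error, of 0.46, adjusted p = 0.0459), and its log2 fold change from 2W to 6W was 1.83 (SE 0.46, adjusted p = 0.115). The rise was not called with any 1 of 2W libraries 1 and 2, 6W libraries 1 and 2 and 3M library 2 left out (adjusted p 0.0652 to 0.171, log2 fold change 1.54 to 2.48).

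Dclk1, a kinase on microtubules that is a common tuft cell marker, had 6.51 and 7.72 CPM at 2W, 14.3 and 11.1 CPM at 6W and 17.0 and 15.2 CPM at 3M. The 3 ages did not overlap. It rose from 2W to 3M by a log2 fold change of 1.18 (SE 0.19, adjusted p = 0.0160), a 2.26-fold difference. Without 2W library 1 or 2W library 2 its adjusted p was 0.0600 to 0.0847, and without the transcripts that the authors assembled themselves, which hold 25.3% of its counts, it was 0.114. Its log2 fold change from 2W to 6W was 0.83 (SE 0.19, adjusted p = 0.0930), and 0.13 with annotated transcripts only.

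Trpm5, the cation channel that opens when a tuft cell senses a ligand, had 1.20 and 0.736 CPM at 2W, 5.09 and 2.12 CPM at 6W and 3.49 and 4.75 CPM at 3M. Its 2W libraries lay below all 4 others. The log2 fold change from 2W to 3M was 2.09 (SE 0.52) with an adjusted p of 0.0501, short of the threshold, which it passed with DESeq2 (adjusted p = 0.00763), total counts as scaling (0.0416), no filter (0.0221) and the 4 libraries compared (0.0490), and from 2W to 6W it was 1.89 (SE 0.52, adjusted p = 0.133). Sh2d6, an adaptor gene used as a tuft cell marker, had 1 count in each 2W library, 0.824 and 0.574 CPM at 6W and 0.361 and 0.582 CPM at 3M. Its summed counts of 30 at 6W and 2 at 2W give a ratio of 11.1 per CPM with an exact 95.0% interval of 2.82 to 96.1, and 19 counts at 3M give a ratio of 7.84 (1.89 to 69.4), both intervals covering counting error only.

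Pou2f3 itself, the factor at the head of this programme, was the flattest of the 5, with 1.14 and 1.53 CPM at 2W, 2.13 and 1.90 CPM at 6W and 1.44 and 1.84 CPM at 3M. Its log2 fold change was 0.59 (SE 0.36, adjusted p = 0.405) from 2W to 6W and -0.29 (SE 0.35, adjusted p = 0.733) from 6W to 3M, and the latter was 0.63 with annotated transcripts only. The remaining tuft markers were too rare to test: Gng13, a G protein subunit of taste signalling, had 26 counts in all with 2 to 10 per library, and Chat, which makes acetylcholine, had 19.99 counts in all, 96.5% of them from assembled transcripts. Chat had 0.361 and 0.403 CPM at 3M and 0 to 0.123 CPM in the libraries of the earlier ages. A list of 10 further tuft genes had 8 tested members. Of these 2 rose from 2W to 3M, as did 7.91% of all genes, and none passed edgeR's test in the other comparisons. Alox5, which starts leukotriene synthesis, had 1.14 and 0.920 CPM at 2W, 3.88 and 2.91 CPM at 6W and 2.71 and 3.00 CPM at 3M, a log2 fold change of 1.47 (SE 0.32, adjusted p = 0.0359) from 2W to 3M. From 2W to 6W its log2 fold change of 1.72 did not pass with edgeR but did with DESeq2, limma on FPKM, total counts as scaling, no filter and the 4 libraries compared (adjusted p 0.0156 to 0.0473). The call from 2W to 3M was not made in any of the 6 fits with 1 library left out (log2 fold change 1.33 to 1.63), nor without the pair low in liver genes. Ptgs1, the cyclooxygenase of prostaglandin synthesis, had 7.40 and 7.77 CPM at 2W, 13.1 and 11.3 CPM at 6W and 12.3 and 14.5 CPM at 3M, a log2 fold change of 0.82 (SE 0.17, adjusted p = 0.0301) from 2W to 3M. This rise passed in 1 of the 6 fits with 1 library left out, that without 3M library 1, and not without the pair low in liver genes. Both enzymes are also made by blood cells of the thymus.

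**Figure D2:**
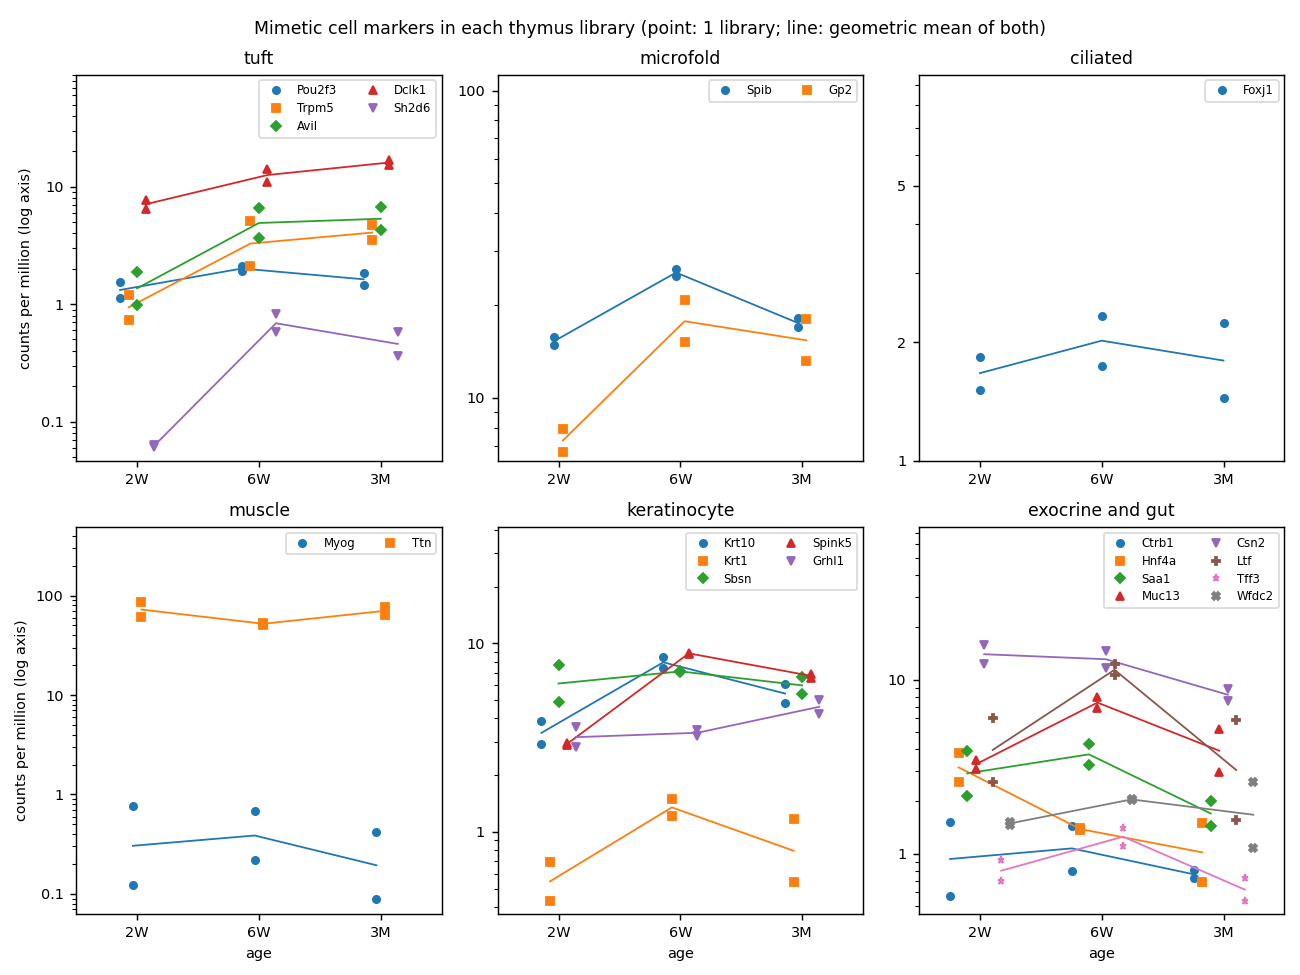
CPM on a log axis of the 23 tested markers in each library, 1 panel per cell type, with a point for each library and a line through the geometric mean of each age. The tuft markers Avil, Trpm5 and Sh2d6 have their 2W points below all later points, Spib, Spink5 and Muc13 are highest at 6W, and Ttn is lowest at 6W.

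The promoters of Trpm5 and Avil are shown because the 2W libraries of these tuft genes lay below all later ones, and the second of 2 listed for Muc13, which lies downstream of the first, because it holds letters of a motif for Hnf4a, another marker. The 250 bases before the start of transcription in RefSeq (GRCm38.p6) were searched on both strands for the octamer ATGCAAAT bound by Pou2f3 and its relatives, CAAAGTCCA for HNF4, TGAGTCA for AP-1, the E-box CAGCTG of muscle factors such as Myog, and AACCGGTT of Grhl factors. In the sequences below, capitals mark the letters that match a motif.
Trpm5, chr7:143094643-143094892, minus strand: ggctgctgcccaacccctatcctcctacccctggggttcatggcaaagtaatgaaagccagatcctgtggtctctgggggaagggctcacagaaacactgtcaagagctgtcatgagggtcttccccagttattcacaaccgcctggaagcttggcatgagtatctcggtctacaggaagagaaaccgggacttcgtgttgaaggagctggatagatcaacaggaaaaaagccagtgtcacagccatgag
Avil, chr10:127000459-127000708, plus strand: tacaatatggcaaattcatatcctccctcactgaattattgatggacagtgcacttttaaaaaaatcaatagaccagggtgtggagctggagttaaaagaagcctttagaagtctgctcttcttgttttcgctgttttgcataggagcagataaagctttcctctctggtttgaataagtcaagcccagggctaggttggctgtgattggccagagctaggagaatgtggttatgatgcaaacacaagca
Muc13 second promoter, chr16:33794239-33794488, plus strand: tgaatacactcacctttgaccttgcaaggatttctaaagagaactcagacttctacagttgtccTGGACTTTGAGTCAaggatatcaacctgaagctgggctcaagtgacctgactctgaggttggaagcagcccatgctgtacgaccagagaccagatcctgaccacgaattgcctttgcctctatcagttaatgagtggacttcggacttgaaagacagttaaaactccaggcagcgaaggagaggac

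Neither tuft promoter held any of the 5 motifs. That listed for Avil lies within the gene, whose RefSeq span begins at 127000065, so that it precedes a later start of transcription. In the second Muc13 promoter the HNF4 letters on the minus strand and the AP-1 letters overlap by 2 bases, while the first held AP-1 letters and none for HNF4. A promoter was found for 28 of the 34 markers. Of these, 1 held the HNF4 letters (Muc13), 4 the AP-1 letters (Chrna1, Dclk1, Ivl and Muc13), 7 the E-box (Chat, Chrna1, Ckm, Ctrb1, Grhl1, Hnf4a and Trp73) and none the octamer or the Grhl letters, while 0.384%, 4.46%, 13.0%, 1.60% and 0.116% of 32851 mouse promoters held them. A marker was counted when any of its listed promoters matched, while the shares are of single promoters, so that these are not on the same scale. A match describes letters in this window and not a bound site.

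Microfold cells carry antigen across the gut lining. Spib, the transcription factor that they need, had 15.7 and 14.9 CPM at 2W, 24.9 and 26.3 CPM at 6W and 17.0 and 18.1 CPM at 3M. The 3 ages did not overlap, with 6W highest. Spib rose from 2W to 6W by a log2 fold change of 0.74 (SE 0.12, adjusted p = 0.0443), and its log2 fold change from 6W to 3M was -0.54 (SE 0.12, adjusted p = 0.214). Without 2W library 1 or 2, or 6W library 1 or 2, the rise was not called (adjusted p 0.140 to 0.311), although its log2 fold change stayed between 0.70 and 0.78. It was not called without the pair of libraries low in liver genes either (adjusted p = 0.0660).

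Spib is also made by B cells and plasmacytoid dendritic cells. The 4 B cell genes Ms4a1, Cd79a, Cd79b and Pax5 together held 37.0 to 41.9 CPM at 2W, 51.2 to 60.1 CPM at 6W and 40.9 to 45.4 CPM at 3M. None of the 4 passed the test in any comparison, none was at 0, and their sum was highest at 6W like Spib. The 5 plasmacytoid dendritic cell genes held 95.4 to 99.5 CPM, 99.5 to 101 CPM and 96.6 to 111 CPM, a sum that rests mostly on Tcf4 (48.4 to 72.0 CPM). Of the 4 tested, Tcf4 was lower in both 6W libraries than in both 2W libraries and Siglech, Bst2 and Lair1 were higher, with a median log2 fold change of 0.52 and none called from 2W to 6W. Bst2 had 14.4 and 12.4 CPM at 2W and 22.1 and 26.1 CPM at 6W. On the FPKM scale it had 16.2 and 14.0 at 2W, 26.5 and 31.0 at 6W and 26.4 and 32.3 at 3M, without the lower 3M values of Spib. From 2W to 3M 1 of the 4 rose, as did 7.91% of all genes. The part of either cell type in the Spib result was not tested.

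Gp2, the surface receptor by which microfold cells bind bacteria, had 7.90 and 6.68 CPM at 2W, 20.8 and 15.2 CPM at 6W and 13.2 and 18.01 CPM at 3M. Both later ages lay above 2W and overlapped with each other. Gp2 rose from 2W to 3M by a log2 fold change of 1.10 (SE 0.24, adjusted p = 0.0329), and its log2 fold change from 2W to 6W was 1.30 (SE 0.24, adjusted p = 0.0559), which passed with DESeq2 (adjusted p = 6.04e-04), limma on FPKM (0.0449), total counts as scaling (0.0432), no filter (0.0204) and the 4 libraries compared (0.0279). With any 1 of 2W libraries 1 and 2, 6W libraries 1 and 2 and 3M library 2 left out, the rise was not called (adjusted p 0.0577 to 0.150). Acinar cells of the pancreas also make Gp2. Of their other markers, Ctrb1 had 0.569 to 1.53 CPM and Cela1 0.961 to 2.21 CPM in all 6 libraries, Cpa1 and Ptf1a were each counted in 1 library only, and the acinar miR-216a-5p was called higher at 6W and at 3M than at 2W and miR-217-5p was called in no comparison. The part of acinar cells in the Gp2 values was not tested. All 5 further microfold genes were tested and none passed, with log2 fold changes from 2W to 6W of 0.34 to 0.81. The most abundant were Tnfrsf11a, the receptor for the cytokine that induces microfold cells, with 17.5 to 26.5 CPM, and Tnfaip2 with 7.42 to 13.6 CPM.

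Of the ciliated cell markers, the master factor Foxj1 had 1.52 and 1.84 CPM at 2W, 1.74 and 2.34 CPM at 6W and 1.44 and 2.24 CPM at 3M. The ages overlapped throughout, and its log2 fold changes were 0.28 (SE 0.38, adjusted p = 0.714) from 2W to 6W and -0.14 (SE 0.37, adjusted p = 0.890) from 6W to 3M. An assembled transcript holds 63.1% of its counts, and with annotated transcripts only its log2 fold change from 2W to 3M was -1.54 in place of 0.14. Trp73, a p53 relative that drives multiciliated cells, had 3.45 estimated counts over all libraries. It was found at 2W only and could not be tested.

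A list of 13 further ciliated cell genes had 5 tested members, of which 2 rose from 2W to 3M, where 7.91% of all genes did. Both code for the dynein heavy chains that bend the axoneme. Dnah9 had 14.7 and 11.0 CPM at 2W, 18.2 and 17.96 CPM at 6W and 24.9 and 23.9 CPM at 3M, so that the ages did not overlap. Its log2 fold change from 2W to 3M was 0.93 (SE 0.16, adjusted p = 0.0198), which did not pass without 2W library 2, 6W library 1 or 6W library 2 (adjusted p 0.0583 to 0.0745). Dnah11 had 0.695 and 0.429 CPM at 2W, 1.26 and 1.498 CPM at 6W and 2.85 and 2.28 CPM at 3M, a log2 fold change of 2.17 (SE 0.41, adjusted p = 0.0235), and passed only without 3M library 2 among the fits with 1 library left out (adjusted p 0.0550 to 0.107 in the other 5). The other 8 genes of the list, among them the cilium genes Rsph1, Tekt1 and Dynlrb2 and the factors Mcidas and Gmnc, had too few counts.

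Mimetic muscle cells express skeletal muscle genes, among them the acetylcholine receptor that is attacked in myasthenia gravis. Of the 5 muscle markers only Ttn and Myog were tested, and neither passed in any comparison. Ttn, the giant spring protein of the sarcomere, had 86.2 and 60.6 CPM at 2W, 50.9 and 53.2 CPM at 6W and 76.9 and 64.2 CPM at 3M. The 6W libraries lay below all 4 others, with a log2 fold change of -0.50 (SE 0.19, adjusted p = 0.230) from 2W to 6W and 0.44 (SE 0.19, adjusted p = 0.356) from 6W to 3M. A single annotated transcript holds 92.7% of its counts.

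The other muscle markers were rarer. Myog, the factor of muscle differentiation, had 0.759 and 0.123 CPM at 2W, 0.679 and 0.221 CPM at 6W and 0.421 and 0.0896 CPM at 3M, with ages that overlapped and SE of 1.05 to 1.13 on the log2 scale. Ckm, the creatine kinase of muscle, had 28 counts in all with 3 to 6 per library, the actin gene Actc1 had 34 with 3 to 10, and Chrna1, the receptor subunit, had 31.5 with 2.22 to 11. None of these 3 was tested. Chrna1 had 0.253 and 0.191 CPM at 2W and 0.392 and 0.493 CPM at 3M. Actc1 went the other way, with 0.443 and 0.429 CPM at 2W and 0.180 and 0.179 CPM at 3M, and the Ckm values of these ages overlapped. Of the 6 adult fibre genes, Actn3 alone held most of the sum of 14.7 to 21.1 CPM, Myh2 was at 0 in both 2W libraries, and the 5 heart muscle genes together held 0.314 to 1.35 CPM.

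A list of 18 further muscle genes had 7 tested members. The best counted of them, named after their values were seen, were Mylpf, a myosin light chain of fast fibres, with 4.39 to 9.80 CPM, Neb, the nebulin of thin filaments, with 5.46 to 10.1 CPM, and Des, the desmin of muscle cells, with 3.92 to 8.19 CPM. Only Musk passed, from 2W to 3M, where 7.91% of all genes rose. Of the 7 log2 fold changes from 2W to 3M 4 were positive and 3 negative, from -1.38 to 2.02. At the study threshold 1 gene was higher and 1 lower, where 7.67% and 1.68% of all genes were. Mylpf had 13.1 and 9.24 FPKM at 2W and 6.11 and 7.39 FPKM at 3M. Musk is the kinase that gathers acetylcholine receptors at the synapse, and had 0.948 and 1.10 CPM at 2W, 2.32 and 2.77 CPM at 6W and 3.07 and 5.30 CPM at 3M. The ages did not overlap. It rose from 2W to 3M by a log2 fold change of 2.02 (SE 0.38, adjusted p = 0.0223), and the adjusted p was 0.428 with annotated transcripts only. It did not pass without any 1 of 2W libraries 1 and 2, 6W libraries 1 and 2 and 3M library 2 (log2 fold change 1.54 to 2.15), nor without the pair low in liver genes.

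Keratinocyte mimetic cells are the cornified cells of the medulla, long known as part of Hassall's corpuscles. Of the 6 markers 5 were tested. Spink5, which codes for an inhibitor of the proteases that shed skin cells, had 2.97 and 2.88 CPM at 2W, 8.87 and 8.83 CPM at 6W and 6.92 and 6.54 CPM at 3M. The ages did not overlap and the libraries of each age were close to each other. Spink5 rose by a log2 fold change of 1.59 (SE 0.19, adjusted p = 0.0248) from 2W to 6W and of 1.20 (SE 0.19, adjusted p = 0.0144) from 2W to 3M, folds of 3.02 and 2.30. With any 1 of the 2W and 6W libraries left out, neither rise was called, although the log2 fold change stayed at 1.59 to 1.62 for the first (adjusted p 0.115 to 0.226) and at 1.18 to 1.22 for the second (adjusted p 0.0545 to 0.0727). From 6W to 3M its log2 fold change was -0.40 (SE 0.18, adjusted p = 0.370).

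Krt10, a keratin of the upper epidermis, had 2.91 and 3.86 CPM at 2W, 8.48 and 7.41 CPM at 6W and 4.81 and 6.09 CPM at 3M, again without overlap between ages. Its log2 fold change from 2W to 6W was 1.23 (SE 0.25, adjusted p = 0.0677), which passed with DESeq2 (adjusted p = 0.0128), no filter (0.0443) and the 4 libraries compared (0.0389), but was 0.37 with an adjusted p of 0.537 by limma on the FPKM values. Its partner keratin Krt1 was rarer, with 0.695 and 0.429 CPM at 2W, 1.21 and 1.5 CPM at 6W and 0.541 and 1.16 CPM at 3M, a log2 fold change of 1.26 (SE 0.54, adjusted p = 0.278) from 2W to 6W. Both keratins were highest at 6W in both libraries, and neither passed with edgeR over all 6 with its filter on low counts.

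None of the other 3 keratinocyte markers passed or, for Ivl, could be tested. Sbsn, a secreted protein of the cornifying layers, had 4.87 to 7.70 CPM over the 6 libraries with overlap between 2W and both later ages, and assembled transcripts hold 67.7% of its counts. The factor Grhl1, which controls genes of skin cell junctions, had 3.60 and 2.81 CPM at 2W, 3.24 and 3.47 CPM at 6W and 4.21 and 5.03 CPM at 3M, highest in both 3M libraries, with a log2 fold change of 0.52 (SE 0.26, adjusted p = 0.248) from 2W to 3M. Ivl, a protein of the cornified envelope, had 15 counts in all and none at 3M, where 3 counts would be 0.134 to 0.180 CPM. Of 11 further keratinocyte genes 7 were tested, all with positive log2 fold changes from 2W to 6W (0.48 to 2.20, median 1.54) and negative ones from 6W to 3M (-1.73 to -0.16, median -0.82). The medians of all genes were -0.01 and 0.02. Only Krtdap passed, from 2W to 6W, where 1.47% of all genes rose. Krtdap, a secreted protein of differentiating skin cells, had 0.632 and 0.552 CPM at 2W, 2.37 and 3.09 CPM at 6W and 1.38 and 1.70 CPM at 3M. Krtdap rose by a log2 fold change of 2.20 (SE 0.38, adjusted p = 0.0477) from 2W to 6W, and was not called without any 1 of the 2W and 6W libraries (adjusted p 0.157 to 0.305) or without the pair of libraries low in liver genes (adjusted p = 0.0706).

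Genes of the medullary epithelium in general were followed beside these. Of the 8 medullary epithelial genes none passed in any comparison, but 7 had positive log2 fold changes from 2W to 6W (median 0.77) and 6 negative ones from 6W to 3M (median -0.22). In 5 of the 8 both 6W libraries lay above both 2W libraries, as in 28% of all genes. The keratin Krt5 had 86.2 and 61.4 CPM at 2W and 134 and 128 CPM at 6W, and the chemokine Ccl21a had 92.2 and 50.0 CPM at 2W and 150 and 174 CPM at 6W. Aire, by contrast, had 6.70 and 8.40 CPM at 2W, 7.32 and 8.69 CPM at 6W and 7.52 and 8.33 CPM at 3M. The part of the medullary epithelium as a whole in the values of the markers was not tested.

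Of the 12 exocrine, gut and secretory markers 8 were tested, and none passed edgeR's test in any comparison. From 2W to 6W Muc13 passed in the fit of the 4 libraries compared (adjusted p = 0.0361). Without the pair low in liver genes, which leaves 1 library at 6W, its log2 fold change was 1.28. From 2W to 3M Csn2 passed lower with DESeq2 (adjusted p = 0.0254) and without a filter (0.0411). All 8 had negative log2 fold changes from 6W to 3M, from -1.60 to -0.14 with a median of -0.77. Muc13, a mucin of the gut surface, had 3.48 and 3.07 CPM at 2W, 7.95 and 6.88 CPM at 6W and 2.95 and 5.20 CPM at 3M. Its 6W libraries lay above all 4 others, with log2 fold changes of 1.18 (SE 0.31, adjusted p = 0.123) from 2W to 6W and -0.85 (SE 0.30, adjusted p = 0.297) from 6W to 3M. The only circRNA assigned to any marker by its source gene was that of Muc13, with 2 junction counts in 6W library 2. Its listed start, 33783802 on chromosome 16, lies before the RefSeq start of Muc13, 33794037. The build of the circRNA positions is not given in the sources used here.

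Hnf4a, the factor of gut and liver epithelium, went the other way, with 2.59 and 3.80 CPM at 2W, 1.41 and 1.37 CPM at 6W and 1.504 and 0.692 CPM at 3M. Its 2W libraries lay above all others, and its log2 fold change was -1.20 (SE 0.45, adjusted p = 0.232) from 2W to 6W and -1.57 (SE 0.47, adjusted p = 0.0823) from 2W to 3M. All of its counts come from transcripts that the authors assembled, so that with annotated transcripts only Hnf4a could not be tested. Saa1, an acute-phase protein that gut and liver epithelia secrete, had 3.92 and 2.15 CPM at 2W, 3.25 and 4.28 CPM at 6W and 1.44 and 2.02 CPM at 3M. Its log2 fold change from 6W to 3M was -1.11 (SE 0.39, adjusted p = 0.295). An assembled transcript holds 56.6% of its counts, and with annotated transcripts only this was -2.76 (adjusted p = 0.567), and 1.37 in place of 0.31 from 2W to 6W.

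Both genes are made by the liver, whose genes were uneven in these libraries. Alb, the serum albumin gene, had 123 to 182 CPM in 4 libraries but 0.839 CPM in 6W library 2 and 2.02 CPM in 3M library 2, and Ttr and Apoa2 were low in the same pair. Hnf4a had 1.41 CPM in 6W library 1, with liver genes, and 1.37 CPM in 6W library 2, without them, and 1.504 and 0.692 CPM in the same pair at 3M. The assembled transcript with 64.7% of its counts had 0 counts in 6W library 2 and 3M library 2, and 13.6 to 52.1 in the others. Its other assembled transcript had 31.0 and 15.4 counts in those libraries, and 0 to 15.4 in the others. The part of liver RNA in the Hnf4a values was not tested. Without that pair, the log2 fold change of Hnf4a from 6W to 3M was 0.095 in place of -0.37.

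Csn2, the casein gene with the highest median FPKM of the markers, had 15.9 and 12.4 CPM at 2W, 11.7 and 14.7 CPM at 6W and 8.90 and 7.57 CPM at 3M. The 3M libraries lay below all 4 others, with a log2 fold change of -0.68 (SE 0.20, adjusted p = 0.259) from 6W to 3M and -0.78 (SE 0.20, adjusted p = 0.0589) from 2W to 3M. Tff3, a peptide that goblet cells secrete with mucus, had 0.695 and 0.920 CPM at 2W, 1.11 and 1.41 CPM at 6W and 0.722 and 0.538 CPM at 3M. Wfdc2, a protease inhibitor of airway and gland secretions, had 1.08 to 2.60 CPM with overlap between 3M and both other ages, and 97.2% of its counts come from assembled transcripts.

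Ltf, the iron-binding lactoferrin of milk, mucus and neutrophil granules, had 6.07 and 2.57 CPM at 2W, 12.3 and 10.6 CPM at 6W and 1.56 and 5.87 CPM at 3M. Its 6W libraries lay above all 4 others. The log2 fold change was 1.41 (SE 0.61, adjusted p = 0.280) from 2W to 6W and -1.60 (SE 0.61, adjusted p = 0.317) from 6W to 3M. Over all alternatives the first lay between 0.94 and 2.15 and the second between -2.97 and -0.95. Without the pair low in liver genes 1 library is left at 6W and 1 at 3M, and that at 3M is the one with less Ltf. The log2 fold changes were then 1.51 from 2W to 6W, -2.97 from 6W to 3M and -1.46 from 2W to 3M. The 7 neutrophil genes Ngp, Camp, S100a8, S100a9, Elane, Mpo and Retnlg together held 15.5 to 32.2 CPM at 2W, 58.6 to 66.4 CPM at 6W and 5.89 to 16.3 CPM at 3M. Ltf and the neutrophil sum were both higher in 2W library 1 than in 2W library 2, highest at 6W, and higher in 3M library 2 than in 3M library 1, and Lcn2, another granule and mucosal protein on the secretory list, followed the same order of ages with 2.53 and 1.10 CPM at 2W, 4.32 and 5.12 CPM at 6W and 0.541 and 2.43 CPM at 3M. The part of neutrophils in the Ltf values was not tested. Bpifa1, a secretory protein of the airway, had 3.40 and 1.96 CPM at 2W, 7.20 and 6.31 CPM at 6W and 3.79 and 10.9 CPM at 3M. It shared the orders within 2W and within 3M but was highest in 3M library 2.

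**Figure D3:**
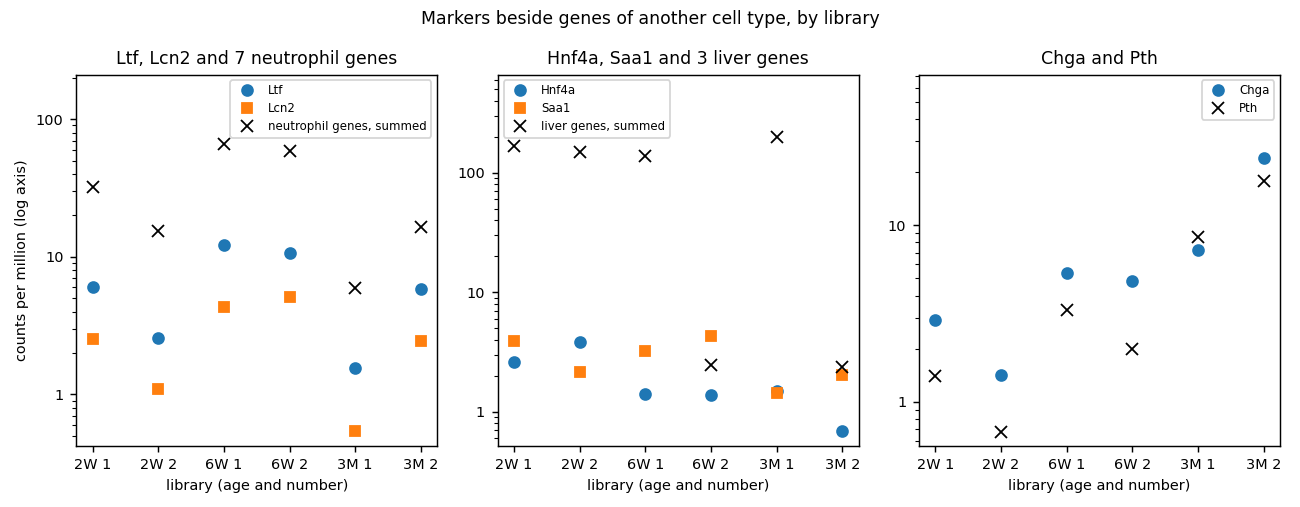
CPM on a log axis in each library of Ltf and Lcn2 with the sum of 7 neutrophil genes (left), of Hnf4a and Saa1 with the sum of 3 liver genes (middle), and of Chga with the parathyroid hormone gene Pth (right). Crosses are the genes of the other cell type. Ltf is highest in both 6W libraries like the neutrophil sum, the liver sum drops to 2.47 and 2.37 CPM in 6W library 2 and 3M library 2, and Chga and Pth are both highest in 3M library 2.

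Of the 3 pancreas markers only Ctrb1 was tested, and it did not pass. Ctrb1, the chymotrypsinogen of acinar cells, had 0.569 and 1.53 CPM at 2W, 1.45 and 0.794 CPM at 6W and 0.722 and 0.806 CPM at 3M. Cpa1, a carboxypeptidase of the same cells, had 10 counts, all in 2W library 2, and Ptf1a, the acinar factor, had 4 counts, all in 6W library 2. Among 11 further pancreas genes 3 were tested and none passed. Prss2, a trypsinogen gene with close relatives, was highest in 2W library 2 with 1.59 CPM, the library that held the Cpa1 counts, and had 0.180 to 0.569 CPM elsewhere. Cela1, an elastase, had 0.961 to 2.21 CPM.

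The neuroendocrine markers Foxa2 and Snap25, a forkhead factor and a protein of synaptic vesicle release, had 14 and 7 counts in all and were not tested. Of 8 further neuroendocrine genes 4 were tested and only Chga passed, the granule protein chromogranin A, from 2W to 3M, where 7.91% of all genes rose. Chga had 2.91 and 1.41 CPM at 2W, 5.38 and 4.85 CPM at 6W and 7.22 and 24.0 CPM at 3M, a log2 fold change of 2.86 (SE 0.61, adjusted p = 0.0328) from 2W to 3M. Without the pair low in liver genes the log2 fold change was 1.74, still called. Without 3M library 2 it was 1.71 and not called (adjusted p = 0.0530), nor was it called without any 1 of the 2W and 6W libraries (adjusted p up to 0.147). Pth, the hormone of the parathyroid glands that lie near or within the thymus, had 1.39 and 0.674 CPM at 2W, 3.30 and 1.99 CPM at 6W and 8.60 and 17.9 CPM at 3M, with its own highest value in the library where Chga was highest. Parathyroid cells make chromogranin A, and their part in the Chga values was not tested.

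Of 8 further gut genes 7 were tested. Reg3g, an antibacterial lectin of the gut, had 15.5 and 13.5 CPM at 2W, 33.7 and 30.8 CPM at 6W and 15.3 and 18.7 CPM at 3M. The 6W libraries lay above all 4 others, as they did for Muc13 and Ltf. Reg3g rose from 2W to 6W by a log2 fold change of 1.15 (SE 0.15, adjusted p = 0.0304), and its log2 fold change from 6W to 3M was -0.92 (SE 0.15, adjusted p = 0.190), which passed with DESeq2 (adjusted p = 0.00129) and without the pair low in liver genes (0.00506). The rise was not called when any 1 of the 2W and 6W libraries was left out (adjusted p 0.117 to 0.250). Over all 91 further genes of these cell types 50 were tested, of which 2 rose and none fell from 2W to 6W, none passed from 6W to 3M with edgeR (Reg3g fell with DESeq2, 1 of the 16 given an adjusted p, where 1.4% of all genes did), and 6 rose and none fell from 2W to 3M. The shares of all genes that rose were 1.47% from 2W to 6W and 7.91% from 2W to 3M. Their median log2 fold changes were 0.56, -0.25 and 0.35.

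The small RNA libraries are a readout of the same organ from other libraries. Of 26 miRNAs known for these tissues 25 were tested among 822. From 2W to 6W 4 rose and 1 fell (2.31% of all tested miRNAs rose and 6.33% fell), from 6W to 3M 1 rose (0.487% of all), and from 2W to 3M 9 rose and 3 fell (13.5% and 16.4% of all). The mature sequences of those that follow epithelium, muscle and acinar cells are shown in RefSeq letters (GRCm38.p6), because a shared seed, bases 2 to 8 in capitals, marks which of them can pair with the same targets.
miR-205-5p: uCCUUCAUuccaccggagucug
miR-203-3p: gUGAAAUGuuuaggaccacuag
miR-200a-3p: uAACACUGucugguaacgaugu
miR-141-3p: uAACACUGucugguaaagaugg
miR-200b-3p: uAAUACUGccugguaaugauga
miR-200c-3p: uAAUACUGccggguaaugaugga
miR-429-3p: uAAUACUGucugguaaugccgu
miR-206-3p: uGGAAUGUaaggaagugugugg
miR-216a-5p: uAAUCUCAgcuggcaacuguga

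The 2 keratinocyte miRNAs share no seed and both rose. The count of miR-205-5p, which marks stratified epithelium, was 1211 and 1070 CPM at 2W, 2467 and 2098 CPM at 6W and 5632 and 4961 CPM at 3M. The ages did not overlap, and it rose by a log2 fold change of 1.001 (SE 0.20, adjusted p = 0.0164) from 2W to 6W, 1.21 (SE 0.20, adjusted p = 0.0187) from 6W to 3M and 2.22 (SE 0.20, adjusted p = 1.73e-04) from 2W to 3M. The last of these was called with any 1 library left out. The first was not called without 2W library 2, 6W library 1 or 6W library 2 (adjusted p 0.0652 to 0.220), and the second not without 6W library 1 or 2 (adjusted p 0.275 to 0.296). The count of miR-203-3p, which stops the division of skin cells as they differentiate, was 315 and 277 CPM at 2W, 528 and 535 CPM at 6W and 515 and 632 CPM at 3M, a log2 fold change of 0.84 (SE 0.21, adjusted p = 0.0343) from 2W to 6W that was not called without 2W library 2, 6W library 1 or 6W library 2 (adjusted p 0.115 to 0.253). From 2W to 3M miR-203-3p rose by 0.95 on the log2 scale (SE 0.21, adjusted p = 0.00823), with any 1 library left out. The order of ages of miR-205-5p, highest at 3M, was not that of Spink5, Krt10 and Krtdap, highest at 6W.

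The miR-200 family, which keeps cells epithelial, holds both seeds AACACUG (miR-200a-3p and miR-141-3p) and AAUACUG (miR-200b-3p, miR-200c-3p and miR-429-3p), which differ in 1 letter. All 5 rose from 2W to 3M, by log2 fold changes of 0.87 to 1.22 with adjusted p of 0.0025 to 0.0257. The most abundant, miR-200a-3p, had 2974 and 2692 CPM at 2W, 5053 and 4575 CPM at 6W and 5858 and 7360 CPM at 3M, without overlap between ages. It was the only one of the 5 that also rose from 2W to 6W (log2 fold change 0.76, SE 0.20, adjusted p = 0.0413), a call lost without any 1 of the 2W and 6W libraries (adjusted p 0.0586 to 0.295). From 2W to 3M miR-200a-3p and miR-429-3p were called with any 1 library left out. That rise of miR-200b-3p was not called without 2W library 2 (adjusted p = 0.0512), that of miR-200c-3p not without 3M library 1 (adjusted p = 0.0594), and that of miR-141-3p not without 2W library 2, 6W library 1 or 3M library 1 (adjusted p 0.0607 to 0.165).

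Of the 4 muscle miRNAs, miR-206-3p, which is made by skeletal muscle and its precursors, fell. It had 29.7 and 23.5 CPM at 2W, 7.01 and 11.0 CPM at 6W and 5.05 and 5.35 CPM at 3M, with no overlap between ages. Its log2 fold change was -1.57 (SE 0.28, adjusted p = 0.0112) from 2W to 6W and -2.35 (SE 0.29, adjusted p = 4.77e-04) from 2W to 3M, the latter with any 1 library left out and the former not without 6W library 1 or 2 (adjusted p 0.0765 to 0.130). The others did not pass. The heart and muscle miRNA miR-133a-3p had 15.9 and 15.2 CPM at 2W, 9.58 and 8.77 CPM at 6W and 16.8 and 16.7 CPM at 3M, lowest at 6W like Ttn, with adjusted p of 0.0652 from 2W to 6W and 0.0875 from 6W to 3M. Likewise miR-1a-3p had 44.7 and 60.9 CPM at 2W, 37.8 and 38.4 CPM at 6W and 45.1 and 64.0 CPM at 3M, and miR-133b-3p had 1.78 to 5.95 CPM.

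Of the remaining miRNAs, the acinar miR-216a-5p rose from 4.12 and 2.55 CPM at 2W to 9.19 and 8.77 CPM at 6W (log2 fold change 1.42, SE 0.38, adjusted p = 0.0484) and had 10.1 and 5.24 CPM at 3M (log2 fold change from 2W 1.21, SE 0.38, adjusted p = 0.0392). The first call was lost without 2W library 2, 6W library 1 or 6W library 2 (log2 fold change 1.12 to 1.58), the second without 2W library 2, 6W library 1 or 3M library 1 (0.64 to 1.19). The first was also lost with total counts as scaling (adjusted p = 0.0511). The other acinar miRNA of the list, miR-217-5p, named after its values were seen, had 2.01 and 3.04 CPM at 2W, 4.84 and 5.70 CPM at 6W and 2.34 and 2.29 CPM at 3M, with log2 fold changes of 1.06 (SE 0.36, adjusted p = 0.0876) from 2W to 6W and -1.18 (SE 0.36, adjusted p = 0.137) from 6W to 3M. The ciliated cell miRNA miR-449a-5p fell from 57.9 and 52.7 CPM at 2W to 35.2 and 30.4 CPM at 3M (log2 fold change -0.76, SE 0.21, adjusted p = 0.0225), which was not called without 2W library 1, 6W library 1, 6W library 2 or 3M library 2 (log2 fold change -0.77 to -0.54). It was not called without a filter either (adjusted p = 0.105). The fall of miR-449a-5p is the opposite direction to Dnah9 and Dnah11. The liver miRNA miR-122-5p fell from 15.6 and 11.6 CPM at 2W to 6.94 and 2.40 CPM at 3M (log2 fold change -1.52, SE 0.43, adjusted p = 0.0226), a call lost without 2W library 1 or 3M library 2 (adjusted p 0.0734 to 0.0899). The neutrophil miRNA miR-223-3p rose from 19.9 and 20.3 CPM at 2W to 42.7 and 38.3 CPM at 3M (log2 fold change 1.01, SE 0.22, adjusted p = 0.0077), with any 1 library left out, while the summed neutrophil mRNAs had 5.89 to 16.3 CPM at 3M.

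**Figure D4:**
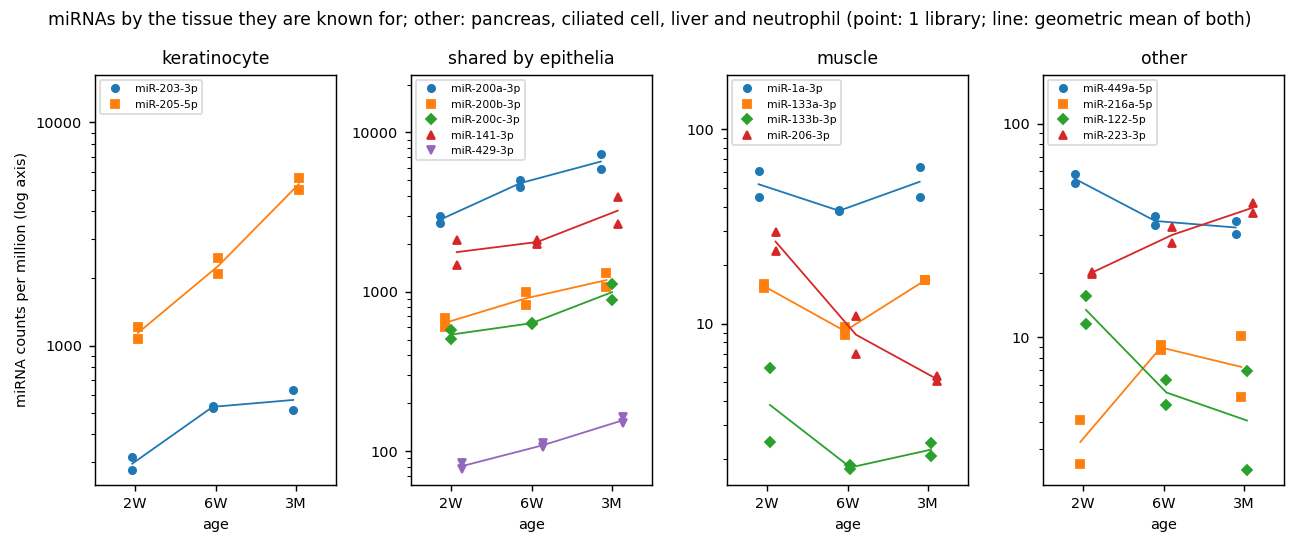
CPM on a log axis of keratinocyte, epithelial, muscle and other miRNAs in each small RNA library, with a point for each library and a line through the geometric mean of each age. Values of miR-205-5p and miR-200a-3p climb from 2W to 3M, miR-206-3p drops, and miR-133a-3p is lowest at 6W.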

How the data were processed

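RNA from the thymus of 6 mice, 2 at each of 3 ages, was read in 6 long RNA and 6 small RNA libraries. The authors deposited estimated counts and FPKM for 77525 annotated and newly assembled transcripts, and whole counts for 2006 miRNAs and 6300 circRNAs. The submitters' processing notes name Bowtie 0.12.2 and the build mm8 without their role, and the programs behind the estimated counts are not given in the sources used here. Of the estimated counts 84.1% were not whole. The lncRNA table was not used here.

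Estimated counts were summed by gene symbol, joining 665 genes whose symbols differ only in case, and rounded. Transcripts without a symbol held 0.70 to 1.20% of a library. Genes passing filterByExpr (14805) were tested over all 6 libraries with edgeR 4.0.16 in R 4.3.3 (TMM scaling, quasi-likelihood F test, Benjamini-Hochberg adjustment over all genes), with calls at an adjusted p under 0.05, and 822 miRNAs likewise, from 9181478 to 10994118 counts per library. Standard errors came from the log2 fold change and its F. An exact permutation test of 2 against 2 libraries cannot go below p = 0.333 and was not used. On simulated counts of 14570 genes for 6W against 2W, 85% of 200 changes of 4-fold were recovered and 17 unchanged genes called. The changed genes were drawn only from the better counted ones, so that this share does not cover the rarer markers or changes under 4-fold.

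The markers and lists were chosen with earlier results of these data known. All 34 markers are given, and of the other genes those called, or the 2 most counted of a list with none. Among the miRNAs, those called and the muscle list are named. Alternatives were DESeq2 1.42.0, scaling by total counts, no filter, fits of 4 libraries, replicate number as a block, exact symbols, annotated transcripts only, limma 3.58.1 on log2(FPKM + 0.1), a prior count of 2 and each library left out. Leaving out the pair low in liver genes was chosen after seeing the data. Same-numbered libraries did not deviate together at all ages, so the numbers were taken as names. The correlation of deviations over genes was -0.06 for 2W with 6W, -0.18 for 2W with 3M and 0.35 for 6W with 3M. The pair low in liver genes is library 2 of 6W and library 2 of 3M. The B cell sum leaves out a gene that is not reported here.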

Additional observations from a re-analysis of the deposited data

How the results depend on the processing

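Counts of called markers moved with the processing, and the cause was not tested. From 2W to 6W the 2 called markers became 7 with DESeq2, 4 without a filter, 5 when only the 4 libraries compared were fitted, 1 with exact symbols, 0 with annotated transcripts only, 4 with limma on FPKM and 8 without the pair of libraries low in liver genes, a fit chosen after seeing the data in which the lone 6W and 3M libraries are assumed to vary like the 2W pair. From 6W to 3M the 0 called became 1, Ltf, in that last fit. From 2W to 3M the 4 called became 2 in the fit of 4 libraries, and 6 with DESeq2 or without a filter, Csn2 among them as lower. Over all genes, 1.74% were called from 2W to 6W, and 6.37% with DESeq2, 2.42% without a filter, 4.59% in the fit of 4 libraries, 0.816% with exact symbols, 0.0282% with annotated transcripts only, 2.72% with limma and 5.7% without the pair. From 2W to 3M the 11% called of all genes became 4.62% in the fit of 4 libraries, 14.9% with DESeq2 and 9.52% without a filter. At the study threshold from 6W to 3M the 2 became 1 with annotated transcripts only. With replicate number as a block, the called markers were 0, 0 and 2 in the 3 comparisons, the other genes 0, 0 and 2, and the miRNAs 3 from 2W to 6W, but the pairing is by number only. Of all genes 0.0338%, 0% and 5.01% were called with the block. The other genes of the same cell types, 2 from 2W to 6W, became 5 with DESeq2, 4 without a filter, 4 in the fit of 4 libraries, 1 with exact symbols, 0 with annotated transcripts only, 6 with limma and 7 without the pair low in liver genes. From 6W to 3M their 0 became 1 with DESeq2 and 3 without that pair, and from 2W to 3M their 6 became 0 in the fit of 4 libraries and 1 with annotated transcripts only.

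With each library left out in turn, where an age left with 1 library is assumed to vary like the others, called markers ranged from 0 to 5 (2W to 6W), 0 to 0 and 0 to 5 (2W to 3M), those past the study threshold from 6 to 10, 0 to 3 and 5 to 7, the other genes from 0 to 4, 0 to 0 and 0 to 6, and the miRNAs from 0 to 6, 0 to 2 and 9 to 11. All 6 marker calls were lost without 2W library 1 and without 2W library 2. Of 32 calls on genes and miRNAs, 6 were made in every such fit.

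Of 156 differences 119 kept their sign in every fit, and none of the 37 that changed sign was called with edgeR over all libraries, though Ltf was from 2W to 3M without the pair low in liver genes (log2 fold change -1.46). With annotated transcripts only, the log2 fold change was 0.63 for Pou2f3 and -0.24 for Tnfrsf11a from 6W to 3M, -1.54 for Foxj1 from 2W to 3M and -0.11 for Musk from 2W to 6W. With total counts it was 0.010 for Ttn and 0.016 for Sbsn from 2W to 3M. With limma it was 0.0017 for Alox5, -0.10 for Tnfrsf11a and -0.075 for Bpifa1 from 6W to 3M and -0.089 for Cela1 from 2W to 6W. That of Tnfrsf11a from 6W to 3M was also -0.012 with DESeq2, -0.018 without a filter and -0.0024 in the fit of 4 libraries. Without the pair low in liver genes it was -0.55 for Trpm5, -0.63 for Avil, 0.095 for Hnf4a, -0.10 for Ptgs1, -0.19 for Tnfrsf11a and -0.93 for Bpifa1 from 6W to 3M, and -0.22 for Foxj1, 0.066 for Ttn, -0.052 for Krt1, -0.15 for Muc13 and -0.46 for Wfdc2 from 2W to 3M.

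Leaving out 1 library turned the sign within these ranges of the log2 fold change. From 2W to 6W they were -0.97 to 1.81 for Myog, -0.095 to 0.55 for Sbsn, -0.071 to 0.26 for Grhl1, -0.45 to 0.996 for Ctrb1, -0.030 to 0.81 for Saa1, -0.27 to 0.094 for Csn2 and -0.049 to 0.58 for miR-141-3p. From 6W to 3M they were -0.30 to 0.96 for Trpm5, -0.31 to 0.58 for Avil, -0.50 to 0.040 for Gp2, -0.55 to 0.14 for Foxj1, -2.23 to 0.14 for Myog, -1.03 to 0.064 for Hnf4a, -0.97 to 0.35 for Wfdc2, -0.043 to 0.26 for Ptgs1, -0.19 to 0.13 for Tnfrsf11a, -0.27 to 0.14 for Tnfaip2, -1.51 to 0.087 for Prss2, -0.89 to 0.70 for Bpifa1, -0.087 to 0.25 for miR-203-3p, -0.78 to 0.13 for miR-216a-5p and -1.21 to 0.28 for miR-122-5p. From 2W to 3M they were -0.25 to 0.44 for Foxj1, -2.18 to 0.96 for Myog, -0.29 to 0.22 for Ttn, -0.085 to 1.07 for Krt1, -0.35 to 0.32 for Sbsn, -0.996 to 0.43 for Ctrb1, -0.18 to 0.69 for Muc13, -1.49 to 0.55 for Ltf, -0.50 to 0.82 for Wfdc2, -1.76 to 0.45 for Lcn2 and -0.12 to 0.28 for miR-1a-3p.

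Depth limits 11 of the 34 markers, which had under 35 counts over all libraries. They did not pass the filter and were not tested for a difference.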

Other observations

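Other cell types of the organ, outside the mimetic lists, also differed between ages. The 5 fat cell genes Ucp1, Cidea, Adipoq, Plin1 and Cfd together held 19.0 to 53.5 CPM at 2W, 101 to 115 CPM at 6W and 161 to 297 CPM at 3M, and 3 of the 5 rose from 2W to 3M. The 4 cortical epithelial genes held 1012 to 1044 CPM at 2W, 1024 to 1093 CPM at 6W and 1420 to 1432 CPM at 3M, with 2 that rose and 1 that fell from 2W to 3M. Of the 4 mesenchyme genes Col1a1, Col3a1, Pdgfra and Dcn, 2 rose and 2 fell from 2W to 3M, and of the 6 thymocyte genes 4 fell. Over all genes tested, 7.91% rose and 3.1% fell from 2W to 3M.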
